A study of Mus musculus with 8 samples.

Results

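The T cell receptor complex and its coreceptors are described here through 10 genes: *Cd3d*, *Cd3e*, *Cd3g*, *Cd247*, *Trac*, *Trbc1*, *Trbc2*, *Cd4*, *Cd8a* and *Cd8b1*. They were chosen by name, as the rows of the deposited count table whose Ensembl identifiers carry these mouse symbols, and are 10 of the 52325 genes in the table. All 10 passed the filter on low counts, as did 18174 genes in all. The libraries hold RNA of endometrium cut out by laser from frozen sections of the uterus, 4 libraries from WT and 4 from Thra1PV/+ mice, with all mice in metestrus. The Thra1PV/+ mice carry the dominant negative PV mutation of thyroid hormone receptor α1 in 1 allele of *Thra* in every cell, so T cells and uterine cells alike carry it, and the WT mice carry none. The age of these 8 mice is not given in the sources used here. The question addressed was whether transcripts of the receptor, of its alpha-beta and gamma-delta forms, and of the helper and cytotoxic coreceptors differed between the genotypes.

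T cells recognise antigen through a receptor of paired variable chains, alpha with beta or gamma with delta, which cannot signal by themselves. They are held at the cell surface by the CD3 chains and the zeta chain, whose tails are phosphorylated when the receptor is engaged. CD4 binds MHC class II and marks helper and regulatory T cells, whereas CD8 binds MHC class I and marks cytotoxic T cells. The uterine mucosa also holds gamma-delta T cells, among them a subset with a nearly invariant receptor.

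*Cd3e*, *Cd3d* and *Cd3g* lie side by side on chromosome 9, and *Cd3g* and *Cd3d* are transcribed away from each other, with 1354 bases between their 5′ ends in GENCODE M21. Their transcripts moved together across the libraries, so the 250 bases before the start site of these genes and of *Cd247* are shown, from RefSeq on GRCm38.p6, with capitals for the Ets-type motif AGGAAGT or its reverse complement ACTTCCT.
*Cd3d* (chr9:44981536-44981785, plus strand): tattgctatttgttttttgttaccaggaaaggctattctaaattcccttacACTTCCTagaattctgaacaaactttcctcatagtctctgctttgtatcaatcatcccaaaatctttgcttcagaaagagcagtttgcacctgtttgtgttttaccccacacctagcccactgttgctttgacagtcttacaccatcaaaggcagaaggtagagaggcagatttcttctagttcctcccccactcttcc
*Cd3e* (chr9:45009612-45009861, minus strand): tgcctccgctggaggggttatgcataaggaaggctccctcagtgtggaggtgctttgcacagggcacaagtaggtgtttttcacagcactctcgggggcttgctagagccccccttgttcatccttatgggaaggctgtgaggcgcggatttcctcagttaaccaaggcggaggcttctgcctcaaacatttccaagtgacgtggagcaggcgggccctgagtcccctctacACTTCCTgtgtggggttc
*Cd3g* (chr9:44980432-44980681, minus strand): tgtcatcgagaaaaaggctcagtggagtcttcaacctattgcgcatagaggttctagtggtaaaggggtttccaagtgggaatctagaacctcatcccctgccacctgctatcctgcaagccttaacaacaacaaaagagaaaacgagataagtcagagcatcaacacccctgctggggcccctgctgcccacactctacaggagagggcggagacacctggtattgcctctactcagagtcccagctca
*Cd247* (chr1:165788431-165788680, plus strand): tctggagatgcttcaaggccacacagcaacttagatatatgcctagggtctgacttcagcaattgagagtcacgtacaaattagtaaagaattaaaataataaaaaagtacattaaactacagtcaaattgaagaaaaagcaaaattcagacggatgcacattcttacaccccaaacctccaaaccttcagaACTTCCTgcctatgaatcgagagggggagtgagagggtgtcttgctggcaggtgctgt

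A promoter entry was found for 5 of the 10 genes, the fifth being *Cd8a*. The Ets-type motif stood once in the windows of *Cd3d*, *Cd3e* and *Cd247*, at 199, 18 and 58 bases before the start site, and in neither of the other two windows. It is held by 7.69% of the 32851 promoter windows of the same length. The half-site AGGTCA, which thyroid hormone receptors bind in pairs, and its reverse complement TGACCT were in none of the 5 windows and in 14.0% of all windows. The E-box CAGCTG was also in none of the 5 and in 13.0% of all windows. These motifs were chosen with the sequences in view, and a match describes letters in a window, not a bound site.

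The 2 beta constant genes have nearly the same first exon, which bears on how reads were divided between them. The rest of their transcripts was not compared. The first exons of *Trbc1* (chr6:41538218-41538592) and *Trbc2* (chr6:41546730-41547104), both on the plus strand of GRCm38, are 375 bases long and differ at 1 base, C260A with the *Trbc1* base first and positions counted from the 5′ end of the exon. The 60 bases around that difference are shown as the transcripts of GENCODE M21 give them, with the differing base in capitals.
*Trbc1* (chr6:41538447-41538506): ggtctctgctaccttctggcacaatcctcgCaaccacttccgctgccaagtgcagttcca
*Trbc2* (chr6:41546959-41547018): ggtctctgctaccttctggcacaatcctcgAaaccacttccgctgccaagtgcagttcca

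The exons are 99.7% identical, with an unbroken shared run of 259 bases. The authors' program, salmon, shares out reads that match several transcripts, and its estimates for *Trbc1*, *Trbc2* and *Cd8b1* were not whole numbers in any of the 8 libraries, whereas those of *Cd3d*, *Cd4* and *Cd8a* were whole in all 8. The single values of *Trbc1* and *Trbc2* are therefore uncertain, and their sum is given as well.

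Estimated counts summed to between 48791883 and 59819099 per library. Expression is given as CPM, the counts of a gene scaled to library size, after TMM normalization, and a gene was called different at a fold change of 2 or more with an adjusted p-value of 0.1 or less in edgeR's quasi-likelihood test. Of the 18174 genes tested, 168 were called higher in Thra1PV/+ endometrium and 12 lower. Epithelial and stromal markers were abundant in every library, but WT library 1 stood apart in smooth muscle markers. WT library 1 held 11926 CPM of 5 myometrial smooth muscle markers against 504 to 1038 CPM in the other WT and 124 to 624 CPM in the Thra1PV/+ libraries. Thra1PV/+ library 2 held the least stromal marker RNA of all, 474 CPM over 6 genes. These sums varied widely, at 2929, 792 and 1087 CPM in Thra1PV/+ libraries 1, 3 and 4 and 1092 to 3036 CPM in WT libraries. *Thra* itself had a log2 fold change of 0.04 ± 0.39 (SE), and a gene count cannot show a change within the coding sequence.

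The CD3 chains were on average more than 2-fold more abundant in Thra1PV/+ endometrium, but 1 of the 4 mutant libraries was at the WT level for all of them. *Cd3d* (chr9:44981786-44987339), the delta chain, was at 2.22, 0.954, 2.39 and 3.43 CPM in Thra1PV/+ libraries 1 to 4 and at 1.32, 0.632, 0.239 and 1.23 CPM in WT libraries 1 to 4. *Cd3e* (chr9:44998740-45009627), the epsilon chain, which pairs with both of its neighbours, was at 3.93, 0.446, 2.82 and 3.52 CPM in Thra1PV/+ and at 0.840, 0.686, 0.418 and 1.28 CPM in WT libraries. *Cd3g* (chr9:44969572-44980431), the gamma chain, was at 8.45, 1.93, 5.41 and 11.0 CPM in Thra1PV/+ and at 3.63, 3.36, 1.37 and 2.89 CPM in WT libraries. For each of these genes Thra1PV/+ libraries 1, 3 and 4 were above every WT library, and library 2 lay among them. The log2 fold change was 1.39 ± 0.60 (SE) for *Cd3d*, 1.73 ± 0.65 for *Cd3e* and 1.25 ± 0.54 for *Cd3g*. In edgeR's quasi-likelihood test the unadjusted p-values were 0.0461, 0.0277 and 0.0476, and the adjusted ones 0.502, 0.434 and 0.506, so none was called. A two-sided exact permutation test of log2 CPM over all 70 ways to split the libraries into 4 and 4, whose smallest possible p is 0.0286, gave p = 0.0857, 0.114 and 0.171.

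*Cd247* (chr1:165788681-165877277) encodes the zeta chain, which natural killer cell receptors also use. It was at 3.93, 1.10, 1.82 and 2.73 CPM in Thra1PV/+ and at 1.51, 2.22, 0.338 and 1.15 CPM in WT libraries. The groups overlapped, with WT library 2 above Thra1PV/+ library 3. The log2 fold change was 0.87 ± 0.60 (adjusted p = 0.699, edgeR's quasi-likelihood test). Some natural killer markers were also highest in that WT library. *Ncr1*, a natural killer receptor, was at 4.19 CPM in WT library 2, 2.02 CPM in WT library 1 and 1.97 CPM in Thra1PV/+ library 1, and at 0.304 to 0.858 CPM elsewhere. The 11 natural killer markers were all tested and none was called, with a median log2 fold change of −0.56. At an unadjusted p under 0.05, 3 were higher and 1 lower, beside 5.05% and 4.72% of all genes. They summed to 174 to 273 CPM in Thra1PV/+ and 120 to 242 CPM in WT libraries, lowest in WT library 2, with none at 0. Most of that sum came from *Itga2*, *Fcer1g*, *Tyrobp* and *Fcgr3*, the only 4 with a log2 fold change above 0. The sum therefore does not follow *Ncr1*, which was highest in WT library 2. The part of the natural killer markers in the *Cd247* values was not tested. The ratio of *Cd247* to *Cd3e* within a library did not differ between the genotypes by more than the spread (log2 difference −0.45, exact permutation p = 0.486).

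**Figure D1:**
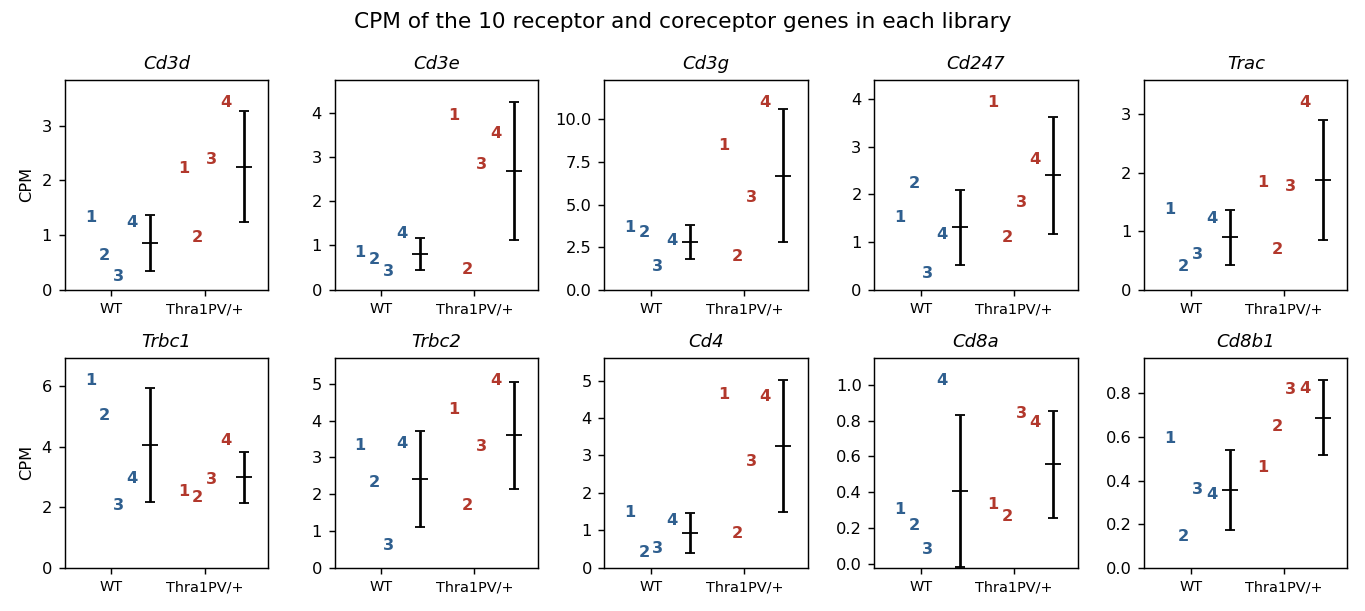
CPM of the 10 receptor and coreceptor genes, with 1 panel for each gene and each library drawn as its replicate number, WT in blue and Thra1PV/+ in red; black bars are the mean and SD of 4 libraries. Thra1PV/+ libraries 1, 3 and 4 sit above all WT libraries for *Cd3d*, *Cd3e*, *Cd3g*, *Cd4* and *Trac*, and library 2 sits among the WT libraries, whereas *Trbc1* is highest in WT libraries 1 and 2.

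The alpha constant gene was high in the same 3 mutant libraries, *Trbc2* followed it in part, and *Trbc1* did not. *Trac* (chr14:54220521-54224206), the constant part of the alpha chain, was at 1.84, 0.690, 1.76 and 3.20 CPM in Thra1PV/+ and at 1.37, 0.397, 0.597 and 1.21 CPM in WT libraries. The 3 mutant libraries were above every WT library and library 2 was not. The log2 fold change was 1.06 ± 0.57 (adjusted p = 0.606, edgeR's quasi-likelihood test; exact permutation p = 0.143). *Trbc1* was at 2.52, 2.33, 2.90 and 4.20 CPM in Thra1PV/+ and at 6.18, 5.04, 2.05 and 2.95 CPM in WT libraries. It was the only one of the 10 genes with a log2 fold change below 0, −0.44 ± 0.40 (adjusted p = 0.788), and its 2 highest values were those of WT libraries 1 and 2. *Trbc2* was at 4.32, 1.70, 3.29 and 5.10 CPM in Thra1PV/+ and at 3.34, 2.31, 0.617 and 3.39 CPM in WT libraries, with mutant libraries 1 and 4 above every WT library and a log2 fold change of 0.58 ± 0.56 (adjusted p = 0.801). Across the 8 libraries Pearson's r with *Trac* was 0.74 for *Trbc2* and 0.12 for *Trbc1*. Summed, the beta constant genes were at 6.59 ± 2.17 CPM (SD, n = 4) in Thra1PV/+ and 6.47 ± 2.86 CPM in WT endometrium, a difference far within the spread. *Trbc1* made up 36.8% to 57.8% of that sum in Thra1PV/+ and 46.5% to 76.9% in WT libraries.

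The helper coreceptor had a fold change close to that of *Cd3e*, and the order of the pair changed with the setting. *Cd4* (chr6:124864692-124888221) was at 4.63, 0.913, 2.84 and 4.59 CPM in Thra1PV/+ and at 1.47, 0.415, 0.517 and 1.28 CPM in WT libraries. Again the mutant libraries 1, 3 and 4 were above every WT library, and library 2 was below WT libraries 1 and 4. The means were 3.24 ± 1.76 and 0.920 ± 0.531 CPM (SD, n = 4). The log2 fold change was 1.82 ± 0.62, with p = 0.0187 before and 0.380 after adjustment in edgeR's quasi-likelihood test, and p = 0.0857 in the exact permutation test. DESeq2, run as an alternative on the same genes, called *Cd4* with an adjusted p of 0.0738 and none of the other 9, while calling 2.72% of all genes higher. The unadjusted edgeR p for *Cd4* stayed under 0.05 when any 1 of the 8 libraries was left out, with log2 fold changes from 1.60 to 2.17.

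The cytotoxic coreceptor was rare in both genotypes. *Cd8a* (chr6:71373427-71379173), the alpha chain of CD8, was at 18, 13, 41 and 45 counts in Thra1PV/+ and at 16, 12, 4 and 49 counts in WT libraries. The highest value belonged to WT library 4, the groups overlapped throughout, and the log2 fold change was 0.45 ± 0.76 (adjusted p = 0.901, edgeR's quasi-likelihood test). *Cd8b1* (chr6:71322788-71337494), the beta chain, which is found mainly on conventional cytotoxic T cells, was at 0.459, 0.649, 0.817 and 0.823 CPM in Thra1PV/+ and at 0.592, 0.144, 0.358 and 0.335 CPM in WT libraries. Here library 1, not library 2, was the lowest of the mutant libraries and lay below WT library 1. The log2 fold change was 0.94 ± 0.46 (adjusted p = 0.571), and the exact permutation test gave p = 0.0571.

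None of the 10 genes was called in either direction, where 0.99% of all tested genes were called, 0.924% higher and 0.066% lower. At an unadjusted p under 0.05, 4 of the 10 were higher (*Cd3d*, *Cd3e*, *Cd3g* and *Cd4*) and none lower, beside 5.05% of all genes higher and 4.72% lower. The log2 fold change was above 0 for 9 of the 10 and for 43.2% of all genes, and its median was 1.002 over the 10 and −0.05 over all genes. In none of the 10 were all Thra1PV/+ libraries above all WT libraries, as they were in 3.55% of all genes, nor all below, as in 2.49%. The genes are read from the same cells and are not independent of each other. The count of 4 depended on single libraries. It was 1 without Thra1PV/+ library 1, 3 or 4 or WT library 2 or 3, 3 without WT library 4, and 5 without Thra1PV/+ library 2 or WT library 1. Without both Thra1PV/+ library 2 and WT library 1 it was 6, with a median log2 fold change of 1.497. This pair was chosen after the data were seen. Its libraries had the lowest mean log2 CPM of the 10 genes in Thra1PV/+ (−0.06) and the highest in WT (0.60). Leaving both out thus widens the difference of these means. In RNA pooled from all cells of the captured endometrium, a different number of T cells and a different amount of RNA per T cell cannot be told apart.

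**Figure D2:**
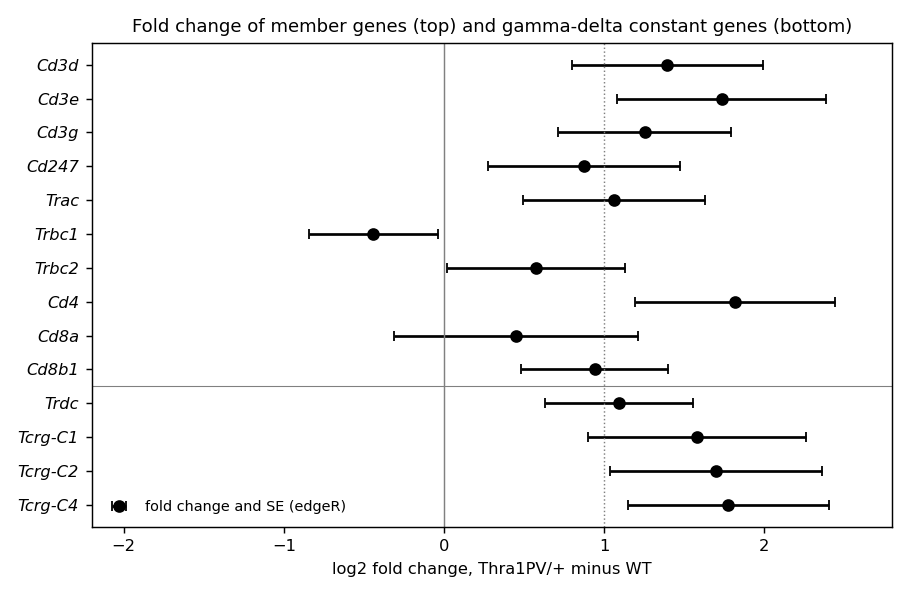
Log2 fold change of Thra1PV/+ against WT endometrium from edgeR, with its standard error, for the 10 receptor and coreceptor genes above the line and 4 gamma-delta constant genes below it; the dotted line marks a 2-fold increase. *Cd4* and *Cd3e* lie farthest right among the 10, at 1.82 and 1.73, and *Trbc1* alone lies left of 0, at −0.44.

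Across the 8 libraries the chains were not equally tied to each other. Pearson's r of log2 CPM, given as a description over 8 libraries that share normalization and genotype, was 0.93 between *Cd3e* and *Cd3g*, 0.89 between *Cd3d* and *Cd3g*, and 0.87 between *Cd3d* and *Cd3e*. *Trac* ran closest with *Cd4* (r = 0.95), and *Trbc2* with *Cd3d* (r = 0.93). *Trbc1* was hardly related to the CD3 chains (r = 0.26 with *Cd3d*, 0.07 with *Cd3e* and 0.34 with *Cd3g*). It was highest in WT library 1, at 6.18 CPM, and next in WT library 2, at 5.04 CPM. Smooth muscle markers summed to 11926 CPM in the first of these libraries and 567 CPM in the other. A link between *Trbc1* and these markers was not tested. *Cd8b1* was also loosely tied, with r = 0.38 to *Cd3g* and 0.42 to *Cd8a*. Of the 15111 other genes with enough signal to compare, 28 had an r of 0.9 or more with the mean of the CD3 genes. The 6 closest were *Epha7*, an ephrin receptor (r = 0.98), *Trdc*, the delta constant gene (0.97), *Gm48035*, a predicted gene (0.96), *H2-DMa*, an MHC class II loading factor (0.96), *Cd52*, a leukocyte surface peptide (0.95), and *Gm4617*, another predicted gene (0.95).

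Compared per length of the longest coding or constant transcript, the beta constant genes and *Cd3g* were the most abundant of the 10 and *Cd8a* the least. In WT endometrium *Trbc1* was at 5.50 ± 2.57 CPM per kb (SD, n = 4), *Trbc2* at 3.49 ± 1.88, *Cd3g* at 2.75 ± 0.984 and *Trac* at 0.958 ± 0.505 CPM per kb. *Cd3e*, *Cd3d*, *Cd247*, *Cd4*, *Cd8b1* and *Cd8a* followed in that order, from 0.551 ± 0.246 down to 0.130 ± 0.135 CPM per kb. Of the 9 neighbouring pairs in this order, 8 differed by less than the larger SD, the exception being *Cd3g* and *Trac*. In Thra1PV/+ endometrium *Cd3g* led at 6.55 ± 3.83 CPM per kb, followed by *Trbc2*, *Trbc1*, *Trac*, *Cd3e*, *Cd3d*, *Cd4*, *Cd247*, *Cd8b1* and *Cd8a*, the last at 0.177 ± 0.0958 CPM per kb. There, 7 of the 9 neighbouring pairs differed by less than the larger SD, and *Trbc1* with *Trac*, and *Cd8b1* with *Cd8a*, differed by more. *Trdc*, the delta constant gene, lay above *Trac* in both genotypes, at 2.44 ± 0.991 against 2.002 ± 1.10 CPM per kb in Thra1PV/+ and 1.14 ± 0.528 against 0.958 ± 0.505 CPM per kb in WT endometrium, within the spread. On the TPM values that the authors deposited this order was reversed. *Trdc* was at 3.01 ± 1.15 against 3.11 ± 1.74 TPM for *Trac* in Thra1PV/+ and at 1.49 ± 0.634 against 1.58 ± 0.796 TPM in WT endometrium. *Trbc2*, at 8.37 TPM, was there also above *Cd3g*, at 8.22 TPM, in Thra1PV/+ endometrium. These orders thus depend on the measure.

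Gamma-delta constant transcripts were also higher in 3 of the 4 mutant libraries. *Trdc* (chr14:54142851-54148868), which lies in the same locus as *Trac*, was at 11.5, 3.73, 10.6 and 11.8 CPM in Thra1PV/+ and at 6.60, 2.96, 2.43 and 5.69 CPM in WT libraries. *Tcrg-C1* (chr13:19214103-19217024), a gamma constant gene, was at 7.29, 0.690, 2.92 and 4.87 CPM in Thra1PV/+ and at 1.70, 1.82, 0.557 and 1.19 CPM in WT libraries. Mutant library 2 was again at the WT level in both genes. The log2 fold changes were 1.09 ± 0.46 for *Trdc*, 1.58 ± 0.68 for *Tcrg-C1*, 1.70 ± 0.66 for *Tcrg-C2* and 1.78 ± 0.63 for *Tcrg-C4*. Of the 5 gamma-delta constant genes 4 were tested, all of those 4 had an unadjusted p under 0.05, and none was called, with adjusted p-values from 0.393 to 0.507 in edgeR's quasi-likelihood test. The share of all genes higher at that unadjusted p was 5.05%. The count of 4 depended on single libraries: it was 0 without Thra1PV/+ library 1, WT library 3 or WT library 4, 1 without Thra1PV/+ library 4, 2 without Thra1PV/+ library 3 or WT library 1 or 2, and 4 without Thra1PV/+ library 2. The remaining gene, *Tcrg-C3*, had at most 1 count in any library.

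Within libraries, the balance of gamma-delta to alpha-beta constant counts was higher in each Thra1PV/+ library than in any WT library. The summed counts of *Trdc* and the gamma constant genes were 2.60, 1.08, 1.98 and 1.60 times those of *Trac*, *Trbc1* and *Trbc2* in Thra1PV/+ libraries 1 to 4, and 0.846, 0.783, 1.03 and 0.964 times in WT libraries 1 to 4. The groups did not overlap, although mutant library 2 and WT library 3 nearly met. The mean log2 ratio was 0.79 ± 0.53 against −0.15 ± 0.18 (SD, n = 4), a difference of 0.94, with the smallest p the exact permutation test allows, 0.0286. After Benjamini-Hochberg adjustment over the 6 ratios compared it was 0.171, so the difference did not pass. Counts were not scaled to transcript length, which is 3865 bases for *Trdc* and 692 to 935 bases for *Trac*, *Trbc1* and *Trbc2*. On the deposited TPM values with 0.1 added the difference was 1.07 (exact permutation p = 0.0857). The difference on counts also varied with the genes counted. With *Trbc1* left out of the denominator it was 0.41, and the log2 ratios overlapped, from 1.09 to 1.87 in Thra1PV/+ and from 0.66 to 1.46 in WT libraries. Against *Trac* alone the log2 ratio ran from 2.64 to 3.61 in Thra1PV/+ and from 2.47 to 3.90 in WT libraries, and the means differed by 0.15. *Trdc* against *Trac* differed by 0.05, the gamma constant genes against *Trac* by 0.39, and *Trdc* against all 3 alpha-beta constant genes by 0.84. These last ratios were added after the data were seen and were not tested.

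**Figure D3:**
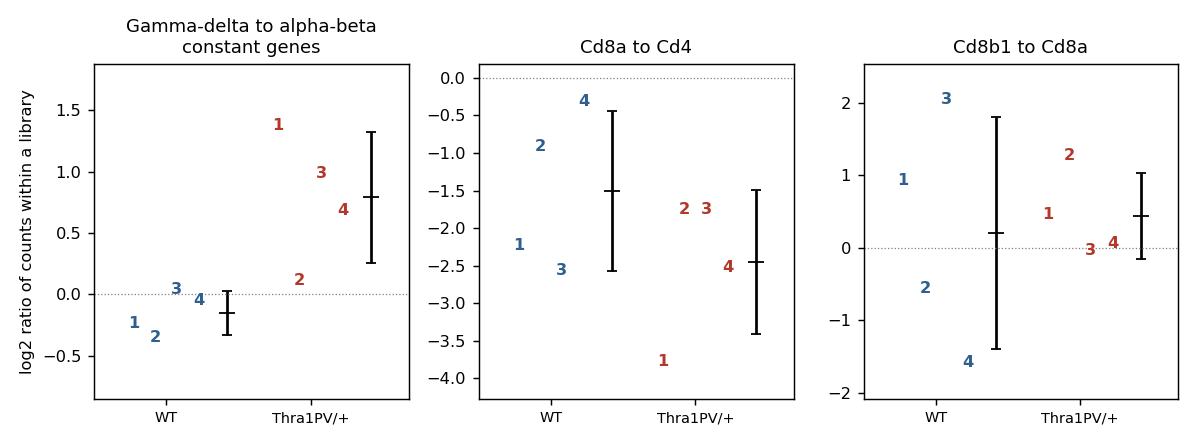
Log2 ratio of counts within each library for gamma-delta against alpha-beta constant genes, *Cd8a* against *Cd4* and *Cd8b1* against *Cd8a*, each library drawn as its replicate number, WT in blue and Thra1PV/+ in red, with the mean and SD of 4 libraries in black. The first ratio lies from 0.11 to 1.38 in Thra1PV/+ and from −0.35 to 0.04 in WT libraries; in the other 2 the genotypes overlap.

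Variable segments, which are joined to the constant genes in a mature receptor, gave a separate view of the same balance. All V segments together held 913 counts over the 8 libraries besides 19 on segments that both alpha and delta chains can use, and gamma and delta segments took 73.2% of them. That share was 75.6% (95% Wilson interval 70.8 to 79.7), 82.8% (71.8 to 90.1), 83.3% (75.2 to 89.2) and 60% (52.4 to 67.2) in Thra1PV/+ libraries 1 to 4. In WT libraries 1 to 4 it was 66.7% (55.2 to 76.5), 84.4% (68.2 to 93.1), 66.7% (50.3 to 79.8) and 72.5% (61.9 to 81.1). The intervals cover counting error only. The highest share was that of a WT library and the lowest that of a mutant library, and the log2 ratio of the counts differed by 0.26 between genotypes (exact permutation p = 0.657), with the groups overlapping. The higher gamma-delta balance of the constant genes was thus not seen in the V segments, whose counts in WT libraries were as low as 32.

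Over all libraries, a single delta segment and a single gamma segment carried most of the gamma-delta counts. *Trdv4* (chr14:54074905-54075515), the Vδ1 segment, held 97.9% of the counts on delta segments, with 147, 48, 64 and 65 counts in Thra1PV/+ and 26, 14, 14 and 52 counts in WT libraries. *Tcrg-V6* (chr13:19190356-19190929), the Vγ6 segment, held 64.6% of the counts on gamma segments, with 78, 3, 16 and 22 counts in Thra1PV/+ and 5, 9, 10 and 5 counts in WT libraries. The pooled gamma share leans on Thra1PV/+ library 1, which holds 78 of the 148 *Tcrg-V6* counts, and in WT library 1 another segment, Trgv2, led with 8 of 17 gamma counts against 5. *Trdv4* and *Tcrg-V6* are the segments of the invariant gamma-delta T cell known from the mouse uterus. They were singled out after their values were seen. Counts on alpha and beta segments were spread more widely: 34 of 101 alpha segments and 20 of 35 beta segments had a count in some library, and the most counted, *Trbv13-2*, held 31 of the 153 beta counts.

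**Figure D4:**
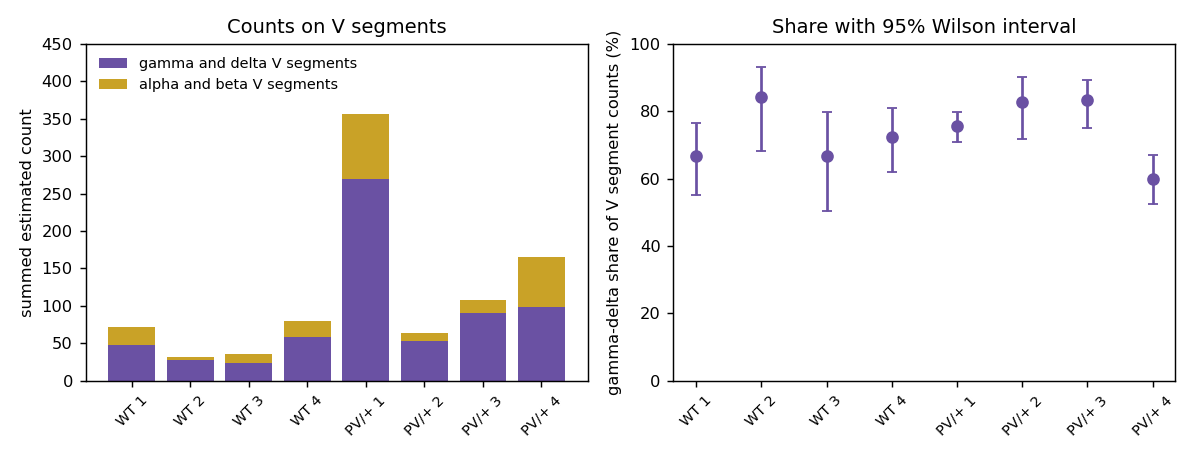
Left, summed estimated counts on gamma and delta V segments and on alpha and beta V segments in each library; right, the gamma-delta share in percent with its 95% Wilson interval, with PV/+ standing for Thra1PV/+. Counts run from 32 in WT library 2 to 356 in Thra1PV/+ library 1, and the shares of the genotypes overlap, from 60% to 83.3% in Thra1PV/+ and from 66.7% to 84.4% in WT libraries.

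Helper and cytotoxic coreceptors did not shift against each other by more than the spread. *Cd8a* counts were 0.0733, 0.297, 0.297 and 0.173 times the *Cd4* counts in Thra1PV/+ and 0.213, 0.532, 0.170 and 0.805 times in WT libraries. The mean log2 ratio was −2.45 ± 0.95 in Thra1PV/+ and −1.50 ± 1.07 in WT endometrium, and the difference of −0.95 had an exact permutation p of 0.257, or 0.583 after adjustment over the 6 ratios. Relative to *Cd3e*, *Cd4* differed by 0.31 (p = 0.429, exact permutation test) and *Cd8a* by −0.63 (p = 0.400, exact permutation test) on the log2 scale. The ratio of *Cd8b1* to *Cd8a* differed by 0.23 (exact permutation p = 0.800), and on the counts available, as few as 4 for *Cd8a* and 8 for *Cd8b1* in a library, its direction changed when 1 library was left out. Without Thra1PV/+ library 2 it was −0.04, without WT library 2 −0.02, and without WT library 4 −0.37.

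Most enzymes and adaptors that act just behind the receptor had smaller fold changes than the CD3 chains. Of 25 genes of proximal signalling 24 were tested, none was called, and the median log2 fold change was 0.11. At an unadjusted p under 0.05, 3 were higher (*Lat*, *Cd5* and *Vav1*) and 0 lower, beside 5.05% and 4.72% of all genes. DESeq2 called 1 of them, *Cd5*, a brake on receptor signalling, higher (log2 fold change 1.20 ± 0.37, adjusted p = 0.327 in edgeR's quasi-likelihood test and 0.0295 in DESeq2). The 3 most abundant by count were *Plcg1*, a phospholipase that many cell types use (0.15 ± 0.17), *Fyn*, a kinase also widely expressed (−0.44 ± 0.66), and *Ptpn22*, a phosphatase of lymphocytes (−0.66 ± 0.37), as log2 fold changes with SE. *Lck*, the kinase bound to CD4 and CD8, was at 8.87 ± 0.985 CPM in Thra1PV/+ and 10.01 ± 3.72 CPM in WT endometrium, and *Zap70*, the kinase that docks on the phosphorylated chains, at 2.85 ± 1.40 and 3.25 ± 1.38 CPM. Both were named after their values were seen, and neither is confined to T cells, since natural killer cells use them too.

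Among 15 genes of helper and regulatory T cells, 11 were tested and 2 were called, both higher, where 0.924% of all tested genes were called higher. *Bcl11b*, a transcription factor of T cell commitment, was at 8.06, 10.4, 8.28 and 8.77 CPM in Thra1PV/+ and at 0.592, 0.596, 0.179 and 0.795 CPM in WT libraries, and *Gata3*, the transcription factor of type 2 helper cells, was at 12.9, 12.8, 9.87 and 9.47 CPM against 2.63, 2.60, 1.11 and 1.53 CPM. Neither gene is restricted to T cells, both being expressed in squamous epithelium as well. The genotypes did not overlap, and the log2 fold changes were 4.03 ± 0.45 (adjusted p = 0.00868, edgeR's quasi-likelihood test) and 2.51 ± 0.34 (adjusted p = 0.0192). Neither of these 2 followed the CD3 chains in Thra1PV/+ library 2, where *Cd3e* was lowest among the mutant libraries. *Bcl11b* was at its highest there, and *Gata3*, at 12.8 CPM, was above its values in mutant libraries 3 and 4. Which cells these 2 differences came from was not tested. DESeq2 also called *Icos*, a costimulatory receptor of activated T cells, and *Il7r*, the receptor that maintains T cells, both of which edgeR did not call. These and the other list genes that passed in DESeq2 alone were chosen for mention after their values were seen. *Icos* was at 2.52, 0.812, 3.58 and 3.01 CPM in Thra1PV/+ and at 1.16, 0.488, 0.279 and 0.712 CPM in WT libraries, and *Il7r* at 1.42 to 3.67 CPM against 0.696 to 1.53 CPM. As for the CD3 chains, mutant libraries 1, 3 and 4 were above every WT library and library 2 was not. The log2 fold changes were 1.90 ± 0.58 and 1.15 ± 0.40, with adjusted p-values of 0.326 and 0.382 in edgeR's quasi-likelihood test and 0.0320 and 0.0649 in DESeq2. *Foxp3*, the factor of regulatory T cells, had at most 10 counts in a library and was not tested.

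Of 6 genes of tissue-resident T cells 5 were tested, and *Runx3*, a transcription factor of resident and cytotoxic lymphocytes that other tissues also express, was called higher, at 8.48 ± 2.12 against 2.70 ± 0.763 CPM (log2 fold change 1.65 ± 0.31, adjusted p = 0.0749, edgeR's quasi-likelihood test). That call was lost when any 1 library other than WT library 1 was left out, with adjusted p-values up to 0.258. The median log2 fold change of the list was −0.13, over genes that differed in both directions. *Cxcr6*, a chemokine receptor of resident lymphocytes, was at 5.70 to 8.32 CPM in Thra1PV/+ libraries 1, 3 and 4 and at 1.13 to 2.44 CPM in WT libraries, and mutant library 2 lay within the WT range. Its log2 fold change was 1.67 ± 0.45, with an adjusted p of 0.241 in edgeR's quasi-likelihood test and 0.00727 in DESeq2, which called it. *Itga1*, an integrin that smooth muscle and other cells also express, was at 9.44 ± 3.42 CPM in Thra1PV/+ and 31.1 ± 22.8 CPM in WT endometrium, highest in WT library 1 at 64.7 CPM. Its log2 fold change was −1.72 ± 0.49 (adjusted p = 0.273 in edgeR's quasi-likelihood test and 0.0261 in DESeq2, which called it lower). Of 12 cytotoxic genes 11 were tested, none was called and the median was −0.64. Its 3 most abundant were *Gzmc*, a granzyme (−0.73 ± 1.05), *Ccl5*, a chemokine (−0.62 ± 0.57), and *Gzmb*, granzyme B (−0.64 ± 0.86). *Gzmb* was highest in WT library 2, at 21.6 CPM there and 1.59 to 8.34 CPM elsewhere. *Fasl*, the ligand of a death receptor, was at 0.264 to 0.698 CPM in Thra1PV/+ and 0.497 to 2.64 CPM in WT libraries. Its log2 fold change was −1.82 ± 0.61, with an adjusted p of 0.367 in edgeR's quasi-likelihood test, and it was called lower by DESeq2 (adjusted p = 0.0901). Of 6 genes of naive T cells none was called, with a median of −0.61, and the 3 most abundant, the transcription factors *Klf2* (−1.35 ± 0.55) and *Satb1* (−1.13 ± 0.64) and the egress receptor *S1pr1* (−0.48 ± 0.46), are also used by other cells. Of 6 thymocyte genes 2 were tested, *Cd1d1* and *Themis2*, and neither was called. *Rag1*, *Rag2* and *Dntt*, which rearrange receptor genes in developing T cells, had at most 5, 1 and 3 counts in any library. *Ptcra*, of the same list, had 7 to 16 counts and was not tested either.

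**Figure D5:**
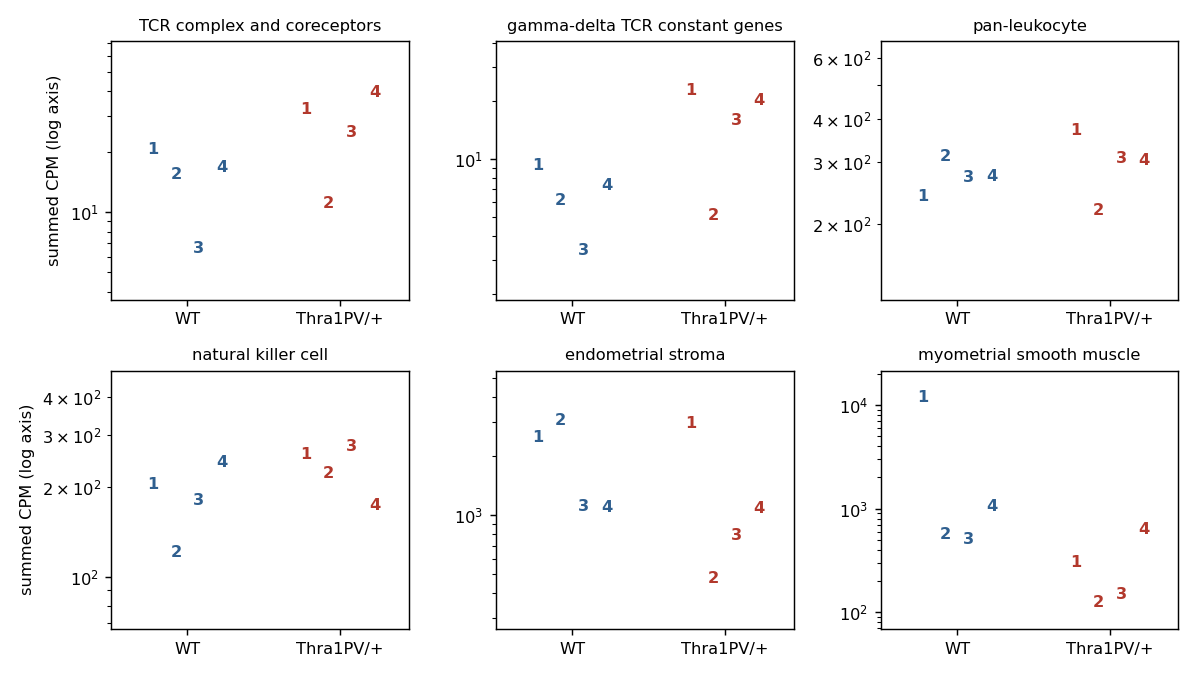
Summed CPM, on log axes, of the 10 receptor and coreceptor genes and of 5 other gene lists in each library, drawn as its replicate number, WT in blue and Thra1PV/+ in red. The receptor and coreceptor genes reach 39.4 CPM in Thra1PV/+ library 4, where library 2 is at 11.0 CPM, and smooth muscle markers reach 11926 CPM in WT library 1.

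Leukocyte markers ran with the receptor genes only in part, and tissue markers are given beside them. The 10 receptor and coreceptor genes summed to 32.6, 11.0, 24.9 and 39.4 CPM in Thra1PV/+ and to 20.6, 15.4, 6.58 and 16.7 CPM in WT libraries. Over 6 pan-leukocyte genes the sums were 371, 217, 308 and 303 CPM in Thra1PV/+ and 240, 311, 272 and 272 CPM in WT libraries, so that mutant library 2 was the lowest of its genotype in both lists. In contrast, WT library 1 had the highest receptor and coreceptor sum of its genotype and the lowest pan-leukocyte sum. None of the 6 was called, and their median log2 fold change was 0.46. Relative to *Ptprc*, the pan-leukocyte phosphatase CD45, *Cd3e* was higher by 0.98, *Cd3g* by 0.61 and *Cd4* by 1.29 on the log2 scale in Thra1PV/+ endometrium. These are differences of means with overlapping ranges, added after the data were seen and not tested. The 6 stromal markers gave a median of −0.51 and none was called. The 5 smooth muscle markers gave −4.01 and none was called, with all 5 lower at an unadjusted p under 0.05, beside 4.72% of all genes. None of the markers of these lists was at 0 throughout. The part of leukocyte number, of the tissue captured or of Thra1PV/+ library 2 and WT library 1 in the receptor values was not tested.

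In edgeR's quasi-likelihood test none of 9 macrophage genes (median log2 fold change 0.24), 8 dendritic cell genes (−0.20) or 6 B cell genes (0.84 over 4 tested) was called. *Pax5*, a transcription factor of B cells, had at most 10 counts in a library. In the B cell list *Cd79a*, a B cell receptor subunit, was at 1.46 ± 1.04 CPM in Thra1PV/+ and 0.242 ± 0.149 CPM in WT endometrium without overlap (log2 fold change 2.58 ± 0.81, adjusted p = 0.341, edgeR's quasi-likelihood test). DESeq2 gave an adjusted p of 0.0336, a call. *Blk*, a kinase of B cells and some T cells, had a log2 fold change of 1.17 ± 0.49 (unadjusted p = 0.0431, adjusted p = 0.493, edgeR's quasi-likelihood test). Thus 2 of the 4 tested were higher at an unadjusted p under 0.05, beside 5.05% of all genes. None of 4 epithelial markers was called, with a median of −0.17.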

How the data were processed

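Endometrial RNA of 4 WT and 4 Thra1PV/+ mice was analysed. The authors sequenced stranded mRNA libraries from both fragment ends. They used Trimmomatic for trimming and salmon with mm10 for counting, and deposited estimated counts per gene without normalization. The salmon version, annotation and strand setting are not given in the sources used here. The authors also deposited TPM values, whose sorted values differ by at most 0.291 TPM between libraries at any rank, as after quantile normalization. A further 1 column there, headed as a sample, was not used.

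Estimated counts were rounded and tested with edgeR 4.0.16 in R 4.3.3 (filterByExpr with minimum count 10 and minimum total 15, TMM, quasi-likelihood test, genotype as the only term, Benjamini-Hochberg adjustment over 18174 genes). A call needed an adjusted p of at most 0.1 with at least a 2-fold change, the thresholds of the study. Identifiers without a symbol held at most 0.00897% of a library. Single values and 6 within-library log2 ratios (counts + 0.5) were compared by two-sided exact permutation tests. Levels per length used the longest coding or constant transcript in GENCODE M21, and promoters came from RefSeq (GRCm38.p6). The edgeR, DESeq2 and limma voom procedures were tested on simulated data. Alternatives were DESeq2 1.42.0, limma 3.58.1 (voom with quality weights, or log2 TPM with 1 or 0.1 added), robust dispersion, other normalizations and filters, replicate number as a block and each library left out. Replicate numbers did not pair the libraries, since deviations of same-numbered libraries correlated between −0.44 and 0.34.

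The 10 genes, the 16 gene lists, thresholds and alternatives were chosen with earlier results of these data known. The named genes are the 10, every gamma-delta constant gene, the called genes of each other list or, without one, up to 3 tested genes with the highest mean log2 CPM (given here for the T cell lists), and the 6 genes most correlated with the mean of the CD3 genes. Others named were chosen after their values were seen.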

Additional observations from a re-analysis of the deposited data

Results flagged for a closer look

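Among the log2 CPM values of the 10 genes and of 4 gamma-delta constant genes, and the 6 log2 ratios, 40 groups of 4 libraries were checked for a single distant value, and 2 held one by Dixon's ratio at its 95% level, as many as the 2 that chance gives at 1 in 20. Both were Thra1PV/+ library 2. For *Cd3e* it stood at −1.04 log2 CPM, with the other 3 libraries of the genotype between 1.52 and 1.99 (ratio 0.844). For *Trdc* it stood at 1.92 log2 CPM, with the others between 3.41 and 3.57 (ratio 0.907). The same library had the lowest pan-leukocyte sum, 217 CPM, and the lowest stromal sum, 474 CPM, of all 8, and their part in these values was not tested.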

How the results depend on the processing

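No member gene was called under 20 of the 22 settings, and the median log2 fold change of those tested (all 10, or 8 with at least 10 counts in every library) stayed between 0.54 (limma on log2 of TPM + 1) and 1.497. DESeq2 called 1 (*Cd4*), and 4 were higher at an unadjusted p under 0.05 in edgeR's quasi-likelihood test. That count was 3 with limma voom, library size alone or the replicate block, 2 with limma on log2 of TPM + 1 and 1 on TPM + 0.1. For the 4 tested gamma-delta constant genes it fell from 4 to 3 with the robust fit, library size alone or TPM + 1. It was 2 there with limma voom or TPM + 0.1 and 1 with the replicate block. Over all genes the 180 calls became 702 with DESeq2, 311 with limma voom and 81 with at least 10 counts in every library. They became 94 without both Thra1PV/+ library 2 and WT library 1 (chosen after seeing the data). At an adjusted p of 0.05 there were 119, and at an unadjusted p under 0.05 there were 1775. Each library left out in turn gave 81 (without Thra1PV/+ library 3) to 167 calls, and 0 member calls. With replicate number as a block, although the numbers do not pair the libraries, there were 82 calls, 75 of them shared, and 0 member calls; only 2 of 8 libraries correlated best with their own number. The gamma-delta to alpha-beta ratio, 0.94 (exact permutation p = 0.0286), was 1.07 on TPM + 0.1 (p = 0.0857, exact permutation), 0.26 on V segments (p = 0.657, exact permutation; added after seeing the data) and 0.94 with the replicate block (p = 0.125, the smallest that 4 exact sign flips allow). Without 1 library it ranged from 0.74 to 1.17, at p = 0.0571 without any 1 WT library and at 0.0286, the smallest possible, without any 1 Thra1PV/+ library (exact permutation). The *Cd8b1* to *Cd8a* ratio ranged from −0.37 to 0.84 without 1 library and reversed without Thra1PV/+ library 2 (−0.04), WT library 2 (−0.02) or WT library 4 (−0.37). The other 4 ratios kept their direction. *Runx3* lost its call under 12 of 20 settings. Counts of 4 to 49 limit *Cd8a* and of 32 to 356 the V segments.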
